A study of Mus musculus with 4 samples.

Results

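The genes described here encode the heat shock proteins of the cytosol, measured in IgA-positive cells of the mouse small intestine. Of a list of 10 genes, 8 have a probe set in the array's annotation: the stress-inducible Hspa1a, Hspa1b, Hsp90aa1, Dnajb1, Hspb1, Hsph1 and Bag3, and the constitutive Hspa8. These 8 genes hold 20 of the array's 45101 probe sets, found by gene symbol. Hsp90ab1, the constitutive HSP90, and Hsf1, the factor that switches the inducible genes on, are not analysed here. The constitutive side therefore rests on Hspa8 alone, and an inducible against constitutive HSP90 pair was not computed. The list was selected from differences between the fractions seen earlier on these same arrays, so for these genes the difference between fractions is a description with no p-value, and where calls of the fit across all genes are counted, the share of all genes called stands beside them.

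The 4 samples were CD11b-positive IgA-positive cells and CD11b-negative IgA-positive cells, 2 arrays each, isolated from female Balb/c mice aged 9 weeks that had received no treatment and whose titles mark them WT. CD11b, the integrin alpha M chain, is best known from myeloid cells, and the series compared IgA-positive cells with and without it. In each fraction, 1 array was labelled from 1 µg of total RNA with the One-Cycle kit and 1 from 0.1 µg with the 3' IVT Express kit. The labels do not say how many mice were pooled or whether the 4 arrays came from separate mice, so p-values measure the spread between arrays, which may be technical. Signals below are linear MAS5 intensities as deposited, then quantile-normalized between arrays, and differences are of log2(signal + 3), which understates differences of dim probe sets. Levels are compared between arrays for 1 probe set at a time. The exceptions are words such as brightest and dim, which rank probe sets by signal, and sums of marker signals, to which bright probe sets contribute most.

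Heat shock proteins keep other proteins folded. HSP70 binds exposed stretches of unfolded chains, J-domain proteins such as Dnajb1 deliver these clients to it, and nucleotide exchange factors such as Hsph1 and Bag3 release them, while HSP90 acts on clients nearer their final shape. Most cells hold constitutive HSP70 and HSP90 at all times. The inducible forms follow heat, unfolded protein and the handling of tissue, when the factor Hsf1 binds heat shock elements, which are GAA units in alternating orientation, in their promoters. Plasma cells, the main source of gut IgA, carry a heavy load of newly made antibody, which is folded in the endoplasmic reticulum by a separate set of chaperones.

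The promoters of 6 of the 8 genes were in the RefSeq table of build GRCm38.p6, as 8 windows of 300 bases that run from 250 before to 50 after an annotated start. They are shown because such units are what Hsf1 binds. The Hspa1a window lies at chr17:34972107-34972406 and the Hspa1b window at chr17:34959189-34959488, both on the minus strand. The Hspb1 window lies at chr5:135887669-135887968 on the plus strand, 1 of the 2 Hsph1 windows at chr5:149636266-149636565 on the minus strand, and the Bag3 window at chr7:128523333-128523632 on the plus strand. Each is printed 5′ to 3′, and capitals mark every match to GAANNTTC or TTCNNGAA, motifs that read the same on both strands.
Hspa1a: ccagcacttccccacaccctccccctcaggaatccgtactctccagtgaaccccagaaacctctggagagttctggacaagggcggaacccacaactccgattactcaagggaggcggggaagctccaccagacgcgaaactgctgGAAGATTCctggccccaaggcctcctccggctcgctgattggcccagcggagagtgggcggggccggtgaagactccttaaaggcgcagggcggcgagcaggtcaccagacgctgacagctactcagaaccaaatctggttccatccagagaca
Hspa1b: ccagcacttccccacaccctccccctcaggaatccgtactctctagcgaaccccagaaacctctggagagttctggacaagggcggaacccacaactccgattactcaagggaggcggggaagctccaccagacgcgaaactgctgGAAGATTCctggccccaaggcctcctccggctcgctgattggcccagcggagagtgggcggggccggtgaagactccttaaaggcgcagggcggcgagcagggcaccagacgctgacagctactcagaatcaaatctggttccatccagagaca
Hspb1: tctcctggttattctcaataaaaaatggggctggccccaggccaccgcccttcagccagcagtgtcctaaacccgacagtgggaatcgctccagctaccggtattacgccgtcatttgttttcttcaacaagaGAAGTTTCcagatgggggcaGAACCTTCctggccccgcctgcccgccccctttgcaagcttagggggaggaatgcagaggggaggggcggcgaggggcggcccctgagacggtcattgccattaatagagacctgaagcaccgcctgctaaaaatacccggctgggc
Hsph1: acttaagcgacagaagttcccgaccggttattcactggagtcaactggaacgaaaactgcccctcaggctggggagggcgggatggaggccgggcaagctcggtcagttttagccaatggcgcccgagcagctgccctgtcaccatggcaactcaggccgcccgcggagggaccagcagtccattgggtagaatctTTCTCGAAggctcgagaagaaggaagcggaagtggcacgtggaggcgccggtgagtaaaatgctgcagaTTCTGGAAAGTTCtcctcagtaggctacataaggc
Bag3: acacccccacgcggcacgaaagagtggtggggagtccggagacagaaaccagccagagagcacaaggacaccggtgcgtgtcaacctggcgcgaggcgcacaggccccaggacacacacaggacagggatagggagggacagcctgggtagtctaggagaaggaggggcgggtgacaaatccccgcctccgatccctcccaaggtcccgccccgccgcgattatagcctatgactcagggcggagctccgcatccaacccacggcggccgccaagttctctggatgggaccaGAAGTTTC

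A pair of such units stood in 6 of the 8 windows, belonging to 5 of the 6 genes, against 15.1% of the 32851 windows in the whole table. That share is per window, and none per gene was computed. The windows are not independent, since the 2 Hsph1 windows overlap and hold the same matches, and those of Hspa1a and Hspa1b are nearly identical. In Hspa1a and in Hspa1b the only match began 104 bases before the start, and in Hspb1 the matches began 117 and 97 bases before it. The Hsph1 window printed above has 1 match that begins 54 bases before the start and 2 overlapping matches that begin at bases 16 and 21 of the transcript. The overlapping pair is a run of 3 alternating units, which 0.603% of all windows hold. In Bag3 the match begins at base 43 of the transcript. Neither Dnajb1 window held a match, which says only that these letters are not in those windows. The Hspa1a and Hspa1b windows differed at 4 of 300 bases, C44T, T47C, T249G and C276T, with the Hspa1a base first and positions counted from 1 at the 5′ end of the window. The matches are a description of these letters, and nothing is drawn from them about the binding of Hsf1.

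All 7 inducible genes had lower signals in the CD11b-positive than in the CD11b-negative array with both kits. The mean of the 7 log2 differences was -0.87 for One-Cycle and -0.89 for 3' IVT Express arrays, or -0.88 ± 0.016 (SD of the 2 kits), which is 1.84-fold lower. That SD is no measure of precision, since differences between kits in single genes offset each other in the mean. The SDs of single genes ran from 0.026 for Bag3 to 0.52 for Hspb1. The constitutive Hspa8 differed by -0.17 and -0.08 on the same scale. Among all 12645 genes tested, 30.5% were lower with both kits and the median difference was 0.0027. Since the rule that chose the genes used this contrast, nothing is read from that count. In bulk RNA, fewer cells of a type that carries these transcripts and less of them per cell cannot be told apart.

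Hspa1a, an inducible HSP70, had the largest mean difference of the list. Its single probe set had signals of 1830 (One-Cycle) and 392.5 (3' IVT Express) in CD11b-positive cells, against 4411 and 1210 in CD11b-negative cells. Within each kit the CD11b-positive array was the lower, but the fractions overlapped across kits, because the CD11b-positive One-Cycle array stood above the CD11b-negative 3' IVT Express array. The log2 differences were -1.27 and -1.62, a mean of -1.44 ± 0.25 (SD of 2 kits), or 2.72-fold lower, and 0.593% of all genes tested had a lower mean difference.

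Hspa1b, the neighbouring copy that encodes a nearly identical HSP70, had signals of 4155 (One-Cycle) and 833.1 (3' IVT Express) in CD11b-positive cells, against 6139 and 1951 in CD11b-negative cells on its brightest probe set. The log2 differences were -0.56 and -1.22, further apart between kits than those of Hspa1a. Its other probe sets, 1427126_at and 1427127_x_at, gave mean log2 differences of -0.86 and -0.84. All 3 were lower in the CD11b-positive array with both kits. The x marks a probe set whose probes can bind several transcripts, and the 2 copies cannot be fully separated on this array.

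**Figure D1:**
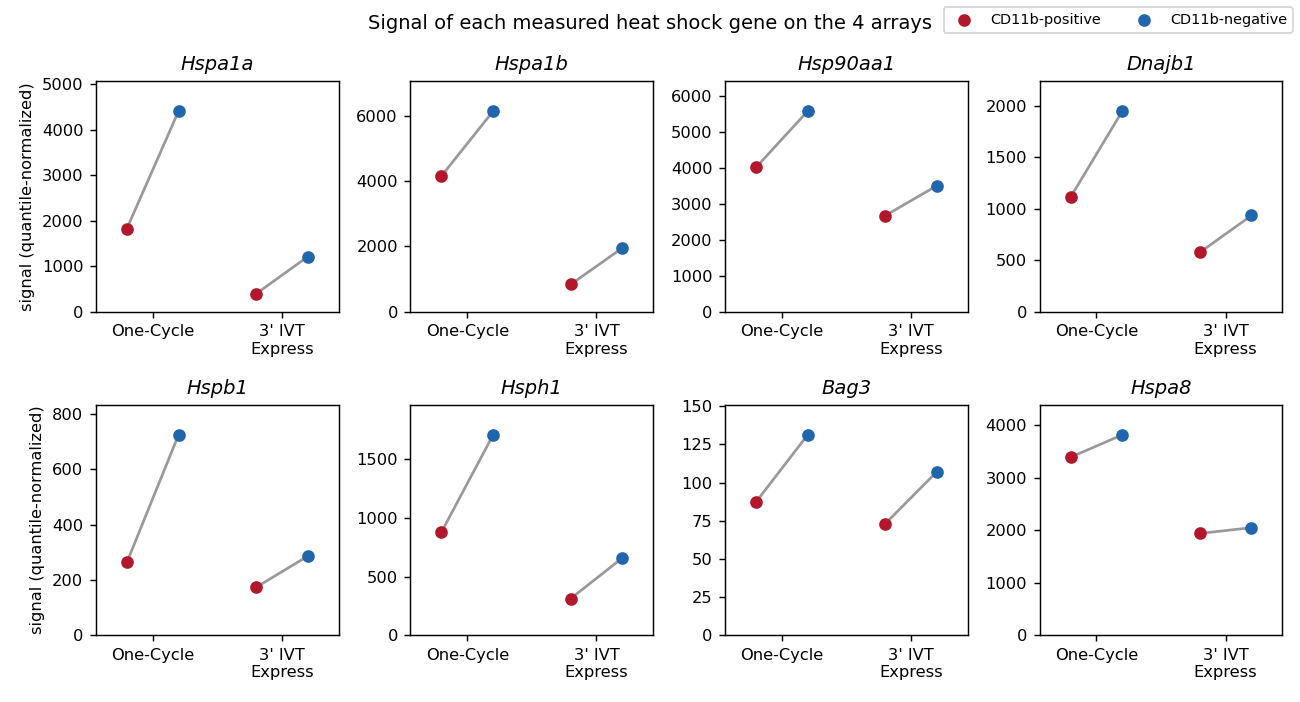
Quantile-normalized signal (linear axis from 0, a separate scale per gene) of the brightest probe set of each measured gene on the 4 arrays. Red points are CD11b-positive and blue points CD11b-negative arrays, 1 array per point, and lines join the 2 arrays of a kit. Every red point lies below its blue partner, with the smallest step in Hspa8.

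Dnajb1, a J-domain protein that activates HSP70, had signals of 1115 (One-Cycle) and 576.1 (3' IVT Express) in CD11b-positive cells, against 1951 and 935.7 in CD11b-negative cells. Its log2 differences were -0.81 and -0.70, and those of its second probe set, 1416755_at, were -0.89 and -0.49. Hsph1, the HSP110 that acts as a nucleotide exchange factor for HSP70, had signals of 878.3 and 312.6 in CD11b-positive cells, against 1705 and 657.8 in CD11b-negative cells. The 2 kits gave Hsph1 nearly the same log2 difference, -0.95 and -1.07, and its second probe set, 1423566_a_at, gave -0.90 and -0.88. For both genes the fractions overlapped across kits.

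Bag3, which links HSP70 to selective autophagy and is itself stress-inducible, was a dim gene with little spread. Its signals were 87.3 (One-Cycle) and 73.1 (3' IVT Express) in CD11b-positive cells, against 131.2 and 107.1 in CD11b-negative cells. Both CD11b-positive arrays lay below both CD11b-negative arrays, and the log2 differences were -0.57 and -0.53. Hspb1 is the small heat shock protein HSP27, which holds unfolded chains without using ATP. On its brightest probe set it was the other gene whose fractions did not overlap. It had signals of 263.7 and 173.4 in CD11b-positive cells, against 723.8 and 286.0 in CD11b-negative cells. The One-Cycle difference of -1.45 was the largest of the 8 genes with that kit, while the 3' IVT Express difference was -0.71. Its other probe set, 1425964_x_at, had the larger difference with the other kit, at -0.26 with One-Cycle and -0.87 with 3' IVT Express. On that probe set the fractions overlapped, with 189.9 in the CD11b-positive One-Cycle array and 158.5 in the CD11b-negative 3' IVT Express array. On brightest probe sets, 2 of the 7 inducible genes had fractions that did not overlap, where 17.3% of all genes tested lay wholly below.

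Hsp90aa1, the inducible HSP90, had the smallest difference of the 7. Its brightest probe set had signals of 4008 (One-Cycle) and 2668 (3' IVT Express) in CD11b-positive cells, against 5569 and 3498 in CD11b-negative cells. The log2 differences were -0.47 and -0.39, or 1.35-fold lower on average, and 14.04% of all genes tested had a lower difference. Its probe sets 1426645_at and 1437497_a_at gave means of -0.53 and -0.54. A dim probe set, 1433251_at, went the other way with 1 kit only, with signals of 13.2 and 21.8 in CD11b-positive cells, against 15.8 and 0.82 in CD11b-negative cells. Another, 1441827_x_at, lay below the low-signal filter of 9.51. With the mean of all probe sets above the filter in place of the brightest, the Hsp90aa1 difference was -0.07.

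Hspa8, the constitutive HSP70 that most cells carry at high level, had signals of 3392 (One-Cycle) and 1941 (3' IVT Express) in CD11b-positive cells, against 3818 and 2051 in CD11b-negative cells. The arrays of a kit lay close together, 1.09-fold lower in CD11b-positive cells on average, and 35.8% of all genes tested had a lower difference. Its probe sets did not move alike. The probe sets 1420622_a_at and 1455789_x_at gave mean log2 differences of 0.14 and 0.07. The dimmest, 1431182_at, had signals of 120.7 and 61.3 in CD11b-positive cells, against 211.1 and 101.5 in CD11b-negative cells, which are differences of -0.79 and -0.70.

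Inducible minus constitutive, taken as the mean log2 of the 7 genes minus that of Hspa8, was lower in CD11b-positive cells by a log2 difference of -0.70 with the One-Cycle and -0.81 with the 3' IVT Express kit, a mean of -0.76 ± 0.08 (SD of 2 kits). For HSP70 alone, Hspa1a and Hspa1b minus Hspa8, the differences were -0.74 and -1.34, a mean of -1.04 ± 0.42. Both measures rest on which Hspa8 probe set is taken. One setting left out all lettered probe set names, those with a letter before the final _at, _a_at as well as _x_at. It is therefore no filter for cross-hybridisation alone. It leaves 1431182_at as the only Hspa8 probe set and 5 of the inducible genes. The mean contrast was then -0.08 and the HSP70 contrast -0.40. Differences between fractions were also compared for the 15 inducible probe sets above the filter. With both kits, 14 had a lower difference than each of the Hspa8 probe sets 1420622_a_at, 1420623_x_at and 1455789_x_at. Against 1431182_at, 4 did. With 1 array left out the fractions differ in kit, and the HSP70 contrast was then -1.77 without the CD11b-positive One-Cycle array and -0.31 without the CD11b-positive 3' IVT Express array. The mean of the inducible genes was -1.48 and -0.28 in the same settings, Hspa8 was -0.53 and 0.28, and Hspa1b was -2.05 and 0.26.

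**Figure D2:**
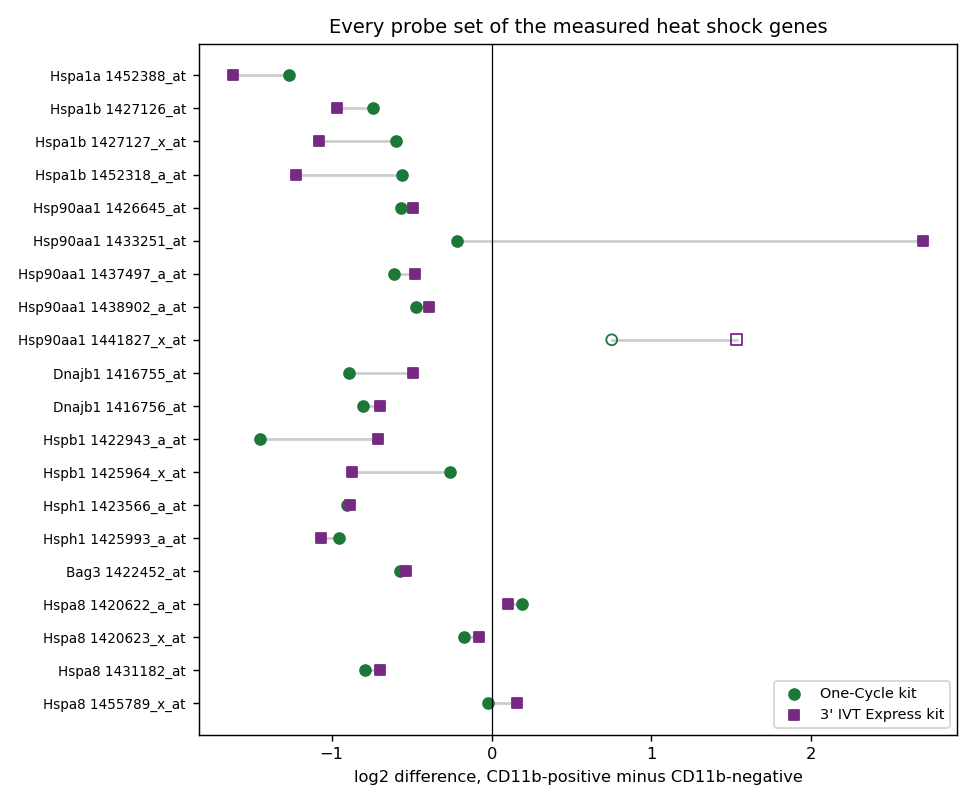
Log2 difference, CD11b-positive minus CD11b-negative, of each of the 20 probe sets within each kit (green circles One-Cycle, purple squares 3' IVT Express, 1 pair of arrays per point; open symbols lie below the low-signal filter). Of the 15 inducible probe sets above the filter, 14 lie left of 0 with both kits, and of the 4 Hspa8 probe sets, 2 do.

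Across all genes, limma without the kit in the model called no gene between the fractions (0 of 12645, or 0% of genes, with a smallest Benjamini-Hochberg adjusted p of 0.306), although 445 genes were lower and 397 higher in CD11b-positive cells at an unadjusted p under 0.05. None of the 8 heat shock genes was called. With the labelling kit as a block, 4.14% of genes were called lower and 3.73% higher in CD11b-positive cells at an adjusted p under 0.05, and 6 of the 7 inducible genes were among those called lower. Bag3 and Hspa8 were not. The rule used this contrast, so nothing is read from the 6 calls. The blocked fit has 1 residual degree of freedom per gene and leans on a trend of variance with signal shared across genes; without that trend it called 0 genes. On the signals as deposited, where the median of all genes differed by 0.42, 5 of the 7 inducible genes were lower with both kits.

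The difference between kits was not used by the rule. In the limma fit with the fraction as a covariate, Hspa1a fell by 2.04 on the log2 scale with the 3' IVT Express relative to the One-Cycle kit (SE 0.10, adjusted p = 4.7e-14), and Hspa1b by 1.98 (SE 0.11, adjusted p = 3.1e-13). Hsph1 fell by 1.43 (adjusted p = 3e-10), Dnajb1 by 1.00 (adjusted p = 7.1e-08), Hspb1 by 0.96 (adjusted p = 4.9e-05) and Hsp90aa1 by 0.63 (adjusted p = 4.7e-06). Hspa8 also fell, by 0.85 (adjusted p = 9.1e-08). Bag3 differed by -0.27 (SE 0.20, adjusted p = 0.434). Thus 7 of the 8 genes were called lower with 3' IVT Express, where 6.72% of all genes were called lower and 7.96% higher. These sizes depend on the scaling, as seen in the same fit on the signals as deposited, an alternative added after seeing the data. There, 4 of the 8 genes were called lower, where 1.99% of all genes were called lower and 25% higher, and the median of all genes differed by 0.32. Hspa1a then differed by -1.54, Hspa1b by -1.46, Hsph1 by -0.92 and Dnajb1 by -0.49 (adjusted p from 1.1e-15 to 0.029), while Hspb1 at -0.47, Hspa8 at -0.29, Hsp90aa1 at -0.10 and Bag3 at 0.07 were not called (adjusted p from 0.071 to 0.863). With median centring 6 were called, all but Hsp90aa1 (-0.13) and Bag3 (0.04), and with a common trimmed mean or cyclic loess 7, all but Bag3.

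Neither the direction nor the size of the kit difference can be tied to the kit itself. Kit, RNA amount and, if the kits were used on separate cell preparations, which the labels do not say, any difference between those cannot be told apart. The calls also lean on the variance trend: without it the kit fit called 0 genes, and without the fraction as a covariate 3. The mean of the inducible genes differed by -1.19 between kits, 3' IVT Express minus One-Cycle, on the log2 scale. Their median was the Dnajb1 difference on quantile-normalized signals given above, against a median of 0.018 over all genes tested. Over the other lists, medians ran from -1.17 for T and NK cell markers, below that of the inducible genes, to 0.35 for stromal and endothelial markers. Between these lay -0.57 for other heat shock factors and stress ubiquitin, -0.47 for cycling cell markers and -0.25 for HSP90 cochaperones. The -0.57 is that of the dim Hsf2, the middle of 3 tested genes. Between kits, 1 of the 3 was called higher with 3' IVT Express and 0 lower. Gut epithelium markers had -0.12 and immediate early genes -0.06. Whether any of these lists shares a source with the inducible genes was not tested.

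**Figure D3:**
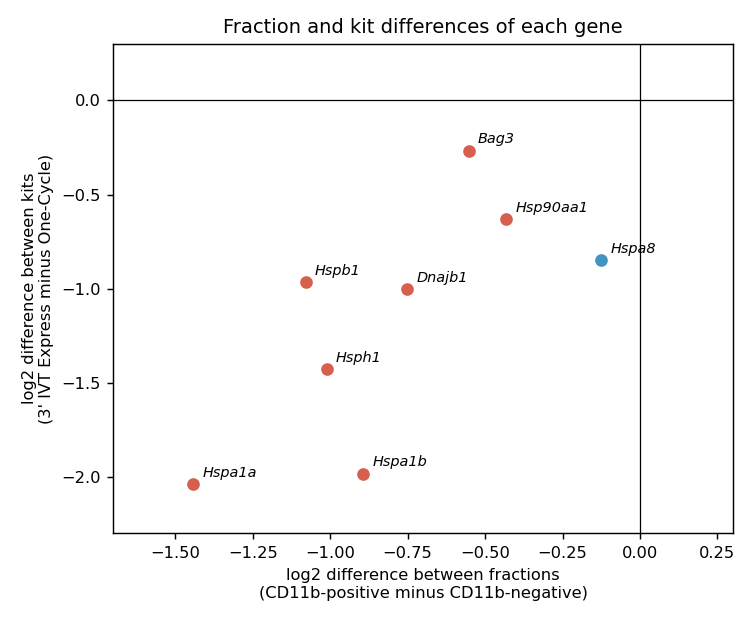
Log2 difference between fractions (horizontal, CD11b-positive minus CD11b-negative) and between kits (vertical, 3' IVT Express minus One-Cycle) for each measured gene, from the same 4 arrays. Hspa1a lies lowest on both axes, at -1.44 and -2.04, while Hspa8, in blue, lies at -0.12 and -0.85, all on quantile-normalized signals.

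The other chaperone genes were taken from lists drawn up with earlier results of these arrays known. Their calls are those of the limma fit with the kit as a block, which called 4.14% of all genes lower and 3.73% higher. Because earlier results were known, the adjusted p-values describe these genes and do not test them. Without the variance trend, that fit called 0 genes. Cytosolic J-domain proteins had 2 of 11 tested genes called, both lower. Dnaja1, an HSP70 partner that is itself stress-inducible, had signals of 973.6 and 573.2 in CD11b-positive cells, against 1504 and 967.3 in CD11b-negative cells, a log2 difference of -0.69 (adjusted p = 3.5e-05). Dnajb2, named here because it was called, differed by -0.54 (adjusted p = 0.042). The list median was -0.09, and Dnaja2, Dnajb6 and Dnajc7, the next brightest, differed by -0.01, -0.09 and -0.14 (adjusted p = 0.978, 0.743 and 0.572).

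Away from the J-domain proteins, none of 8 BAG and other HSP70 cochaperones was called, with a median of 0.047, and none of 12 HSP90 cochaperones, with a median of 0.049. Bag1, a nucleotide exchange factor of HSP70, differed by 0.11, and Stub1, the ubiquitin ligase that marks its clients for degradation, by -0.06. St13 and Bag6 differed by 0.01 and 0.07. Among the HSP90 partners Cdc37, which loads kinases onto HSP90, differed by 0.0002, with opposite signs between kits (-0.16 and 0.16). Chordc1 differed by 0.04, Nudc by 0.10 and Ahsa1, which stimulates the ATPase of HSP90, by 0.18. Their adjusted p-values ran from 0.545 for Ahsa1 to 1.00 for Cdc37.

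Other HSP70 and HSP110 genes of the cytosol had 0 of 4 tested genes called. Hspa4, Hspa14, Hspa2 and Hspa4l differed by 0.15, 0.27, -0.36 and -0.20. Small heat shock proteins other than Hspb1 were dim, with 3 of 7 above the filter, 0 called and opposite signs between kits in all 3 (Hspb2, Hspb6 and Hspb8). Of the other heat shock factors and stress ubiquitin genes 3 were tested and 0 called, among them the factor Hsf2 at -0.23 and the Hsf1-binding protein Hsbp1 at 0.05, while Hsf4 read 22.9 and 21.4 in CD11b-positive cells, against 25.8 and 2.95 in CD11b-negative cells.

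The cytosolic chaperonin and prefoldin genes, which fold actin and tubulin, had 2 of 14 genes called, Cct2 and Cct8, both named because they were called, higher in CD11b-positive cells by 0.37 and 0.50 (adjusted p = 0.023 and 0.013). The list median was 0.25, with 11 genes higher with both kits. Among all 12645 genes tested, 3998 were higher and 3861 lower with both kits. The brightest members of the list, Pfdn5, Cct3, Cct6a and Cct5, differed by -0.21, 0.25, 0.13 and 0.25. Of 16 chaperones of the endoplasmic reticulum, 1 was called and is named for it, the disulfide isomerase Pdia3 (0.30, adjusted p = 0.033), and the list median was 0.15. Hsp90b1, the HSP90 of that compartment, had signals of 9000 and 6795 in CD11b-positive cells, against 7202 and 6858 in CD11b-negative cells. Hspa5, its HSP70, differed by 0.09, Calr by -0.16 and Manf by 0.15. In mitochondria 0 of 10 genes were called, 4 were higher and 4 lower with both kits, and the list median was 0.026. The chaperonin pair Hspd1 and Hspe1 differed by -0.29 (adjusted p = 0.070) and -0.20 (adjusted p = 0.276), Hspa9 by 0.18 and Grpel1 by 0.20.

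**Figure D4:**
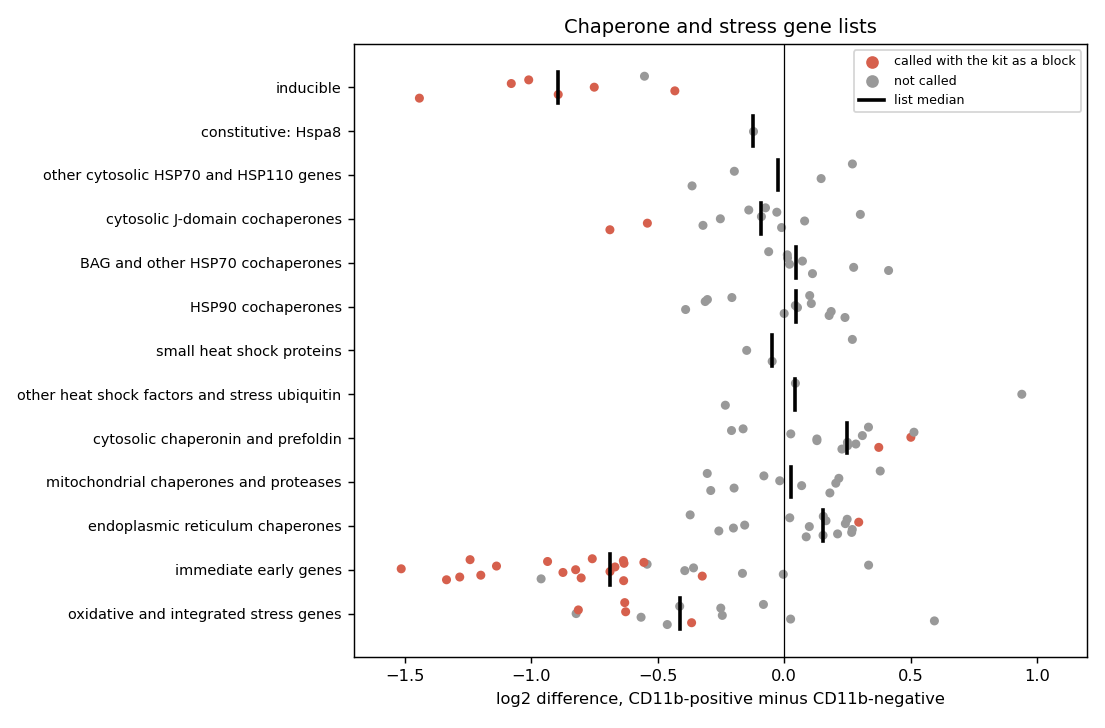
Log2 difference, CD11b-positive minus CD11b-negative, averaged over the kits, of each tested gene in the chaperone and stress lists (1 point per gene, red where called with the kit as a block, grey where not; vertical offset within a list is for legibility; black bars are list medians). The inducible genes have a median of -0.89 and the immediate early genes of -0.69, while the HSP90 cochaperones lie around 0.

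Lists of other acute responses were read in the same way. Of 25 immediate early genes, 18 were called lower and 0 higher, 21 were lower and 1 higher with both kits, and the list median was -0.69. Among all genes tested, 4.14% were called lower and 3.73% higher, and 30.5% were lower with both kits. The adjusted p-values here, too, describe and do not test. Fos, a component of the AP-1 factor, had signals of 4752 and 3554 in CD11b-positive cells, against 7099 and 5738 in CD11b-negative cells (log2 difference -0.63, adjusted p = 3.0e-06). Jun differed by -0.80 (adjusted p = 4.0e-06), Jund by -0.32 (adjusted p = 0.0076) and Zfp36, which destabilises cytokine transcripts, by -0.67 (adjusted p = 1.4e-05). Of 13 oxidative and integrated stress genes, 4 were called lower and 0 higher, with 9 lower and 1 higher with both kits and a median of -0.41. The metallothioneins Mt1 and Mt2 differed by -0.63 and -0.81 (adjusted p = 1.4e-04 and 3.0e-06), the autophagy receptor Sqstm1 by -0.37 (adjusted p = 0.016) and Atf4, the factor of the integrated stress response, by -0.08 (adjusted p = 0.746).

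Markers of other cells moved with the same contrast, as did a ratio of RNA quality, and their part in the heat shock differences was not tested. Marker calls are those of the same blocked fit, which called 4.14% of all genes lower and 3.73% higher. Its p-values again only describe. Of 15 gut epithelium markers, 12 were called lower, with sums of signal of 3676 (One-Cycle) and 2847 (3' IVT Express) in CD11b-positive cells, against 6143 and 6732 in CD11b-negative cells, and the lowest signal of any was 44.9. Of 9 T and NK cell markers 5 were called lower, with sums of 2737 and 1389 in CD11b-positive cells, against 5517 and 2023 in CD11b-negative cells. Gzma alone gave 2420 of the CD11b-negative One-Cycle sum. Of the 9, 6 were lower and 1 higher with both kits, and 2 had opposite signs. Of 13 cycling cell markers 12 were called higher, with sums of 9227 and 6744 in CD11b-positive cells, against 4835 and 3422 in CD11b-negative cells. Of 8 macrophage, monocyte and dendritic cell markers 1, Itgax, was called, higher, with sums of 633.6 and 484.0 in CD11b-positive cells, against 425.9 and 366.4 in CD11b-negative cells. Of 5 granulocyte and mast cell markers 1, Prg2, was called, lower, and of 8 stromal and endothelial markers 0. No tested marker was listed at 0. Plasma cell markers were abundant on all arrays, from 566.0 upward, and 7 of 8 were not called. Igha and Jchain lie at the top of the scale, where quantile normalization leaves only exchanges of rank, so no difference is given for them. Sdc1 was 1.52-fold lower in CD11b-positive cells (adjusted p = 9.0e-06). The actin 3'/5' signal ratio, which rises as RNA is degraded or copied incompletely, was 1.43 and 1.61 in CD11b-positive cells, against 1.90 and 1.84 in CD11b-negative cells, and that of Gapdh was 0.682 and 0.710 in CD11b-positive cells, against 0.685 and 0.704 in CD11b-negative cells.

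By profile over the 4 arrays, the inducible genes were not tight neighbours. The distance from their own mean profile, in log2 units, was 0.23 for Dnajb1, 0.28 for Hsph1, 0.48 for Hspb1, 0.72 for Hsp90aa1, 0.86 for Hspa1b, 0.98 for Bag3 and 1.03 for Hspa1a, against 0.83 for Hspa8. Hspa1a had the largest and Bag3 the smallest kit difference of the 7. Outside the list the nearest were Ces5a at 0.039, Inpp5j, Mapk13, Ppp1r1b and Gpatch3 at 0.265, all of them dim, with at most 135.4 on any array. With 4 arrays, 3 non-member genes lay nearer to that mean than Dnajb1 and 1112 lay nearer than Hspa1a.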

How the data were processed

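The deposited values are intensity values, 1 linear signal per probe set. Per the submitters' processing notes, the authors used Affymetrix Expression Console and MAS5; detection calls and settings were not used here. Of 45101 probe sets, 64 controls were left out, 34945 name 1 gene in the platform annotation, 932 several and 9160 none here. Deposited array medians were 18.3 and 17.5 in CD11b-positive and 14.7 and 16.1 in CD11b-negative arrays, so signals were quantile-normalized. A pseudocount of 3 was added before log2, probe sets above the 40th percentile of mean signal (9.51) were kept, and the brightest per gene stood for it. The 12645 genes were fitted in R 4.3.3 by limma 3.58.1 with a variance trend (eBayes). Tests were 2-sided, and p-values were adjusted by Benjamini-Hochberg with a threshold of 0.05. The fit was also run on simulated arrays whose noise followed the fitted variance trend, so that run cannot test the reliance on the trend.

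The labelling protocols pair the arrays by kit, and same-kit deviations from the fraction means correlated (r = 0.387), so the block on kit is printed beside the fit without it. Only 4 arrays limit the precision, and no exact permutation test of 2 against 2 can pass 0.05. The genes and lists were chosen with earlier results of these data known. Named were all members, the 4 genes of highest mean signal in each other chaperone or stress list, and the 5 nearest profiles. Dnajb2, Cct2, Cct8 and Pdia3 lie outside that rule and were named after their values were seen, because they were called; marker lists are given as sums, with those markers named that bear on the sort. Promoters came from RefSeq, GRCm38.p6; the array names no build.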

Additional observations from a re-analysis of the deposited data

How the results depend on the processing

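Groups of 2 arrays, a lone Hspa8 as the constitutive side, no detection calls and labels that name no mice limit every statement above. The count of genes called between fractions was 0 in the fit without the kit and 996 with the kit as a replicate block, 0 with that block and no variance trend (added after seeing the data), and 0 to 24 when 1 array was left out. The count called between kits was 1856, 3420 on signals as deposited, 3673 after median centring and 1148 without lettered names. It was 3 without the fraction in the model and 0 without the variance trend. With 1 array left out, the kit fit also dropped the fraction and left 1 array for a kit, so no count is given.

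The mean difference of the inducible genes, -0.88, was -0.79 as deposited, -0.80 after median centring, -0.81 with a common trimmed mean, -0.90 with cyclic loess (each relative to the median of all genes), -0.86 with a pseudocount of 12, -0.77 with the mean of all probe sets and -0.83 without cross-hybridising names. Hspa8, at -0.12, was -0.75 without lettered names. Relative to the median of all genes it was -0.017 as deposited, -0.028 with median centring and -0.039 with a trimmed mean. Inducible minus constitutive was -0.61 with the mean of all probe sets and -0.080 without lettered names, where the HSP70 contrast was -0.40. The count of inducible genes lower with both kits was added after seeing the data and made without subtracting a median. It was 5 of 7 as deposited, 6 of 7 with the mean of all probe sets, 5 of 5 without cross-hybridising names and 7 of 7 otherwise.

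With 1 array left out the fractions differ in kit, so the kit difference enters. The inducible mean then ran from -1.48 to -0.28, Hspa8 from -0.57 to 0.32, inducible minus constitutive from -0.95 to -0.56 and the HSP70 contrast from -1.77 to -0.31. Hspa8 turned to 0.28 without CD11b-positive replicate 2. It was 0.32 without CD11b-negative replicate 1. Hspa1b ran from -2.05 to 0.26, positive only without CD11b-positive replicate 2. The kit difference of Bag3, -0.27, turned to 0.075 as deposited and 0.044 with median centring, with no median subtracted. Relative to the median of all genes it was -0.25 in both settings. Of 62 single-gene fraction differences under the other alternatives, 0 changed sign, 48 moved by less than the SD between kits and 14 by more. In that count, values under the other scalings are relative to the median of all genes. Changes of sign without that subtraction are therefore not counted. As deposited, Hspa8 read 3380 and 2649 in CD11b-positive cells, against 2460 and 2093 in CD11b-negative cells. The HSP90 pair was not run, since Hsp90ab1 is not analysed here.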
